A study of Mus musculus with 16 samples.

Results

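The subunits of the oxidative phosphorylation (OXPHOS) machinery were followed in mouse liver RNA. The members were every protein-coding gene whose name begins as a mitochondrially encoded subunit (mt-Nd, mt-Co, mt-Atp, mt-Cytb) or as a nuclear subunit of complexes I to V (Nduf, Sdh, Uqcr, Cox4 to Cox8, Atp5). The rule took 96 of the 53379 genes in the table, of which 13 are encoded by mitochondrial DNA and 83 by nuclear chromosomes, and it left out 6 processed pseudogenes with matching names. By complex, the nuclear members comprised 37 of complex I, 4 of complex II, 8 of complex III, 18 of complex IV and 16 of complex V, and the mt-encoded members 7 of complex I, 1 of complex III, 3 of complex IV and 2 of complex V. Names were taken as the rule sorts them, so that Ndufa4, now regarded as a complex IV protein, stands under complex I, and Cox7a2l, a factor that joins complexes III and IV, stands under complex IV.

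Poly(A)-selected RNA of whole livers was sequenced from Control and Mettl3 conditional knockout (cKO) C57BL/6J mice at 1 day (P1) and at 1, 2 and 4 weeks of age (W1, W2, W4), with 2 libraries in each of the 8 groups. Mettl3 is the catalytic subunit of the enzyme that writes N6-methyladenosine on messenger RNA. The labels give the Control genotype as WT. Per the study the cKO mice carried floxed exons 2 to 4 of Mettl3 on both alleles together with Cre under the albumin enhancer and promoter. The study describes this knockout as specific to the liver, and which liver cell types kept Mettl3 was not examined here. The study's methods give 2 individuals for each time point, and the labels do not tie a library to an animal, so p-values measure the spread between these libraries.

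Each library held 10.8 to 15.5 M reads assigned to genes, as recovered from the spacing of low values. Values are FPKM (fragments scaled to exon length and to library depth), a unit inferred from the values. Replicates differed in sex at P1, where 1 Control library was male and 3 libraries were female. W1 Control was male where W1 cKO was female, so that sex and genotype cannot be told apart at W1. All cKO libraries were female at P1 and W1 and male at W2 and W4. In cKO, sex and age therefore cannot be told apart from W1 to W2 or from P1 to W4. Mettl3, the targeted gene, was not lower in the libraries labelled cKO (6.72 to 11.3 FPKM against 4.94 to 8.12 in Control). The value counts the whole gene and does not show the deletion of exons 2 to 4. The 2 W2 Control libraries stood apart from all others, since mt- genes, ribosomal RNAs included, held 58.1% and 59.0% of their summed FPKM against 14.8% to 43.8% in the remaining 14. Whole livers were used, so fewer cells of a type and less RNA per cell cannot be told apart.

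The respiratory chain passes electrons from NADH through complex I, and from succinate through complex II, by way of ubiquinone to complex III, then by cytochrome c to complex IV, where oxygen is reduced. Complexes I, III and IV pump protons across the inner mitochondrial membrane and complex V, the ATP synthase, uses the gradient to make ATP. Complex II is encoded by nuclear genes alone, while the others mix both kinds of subunit, so that their assembly needs transcripts from both genomes. Hepatocytes are rich in mitochondria, and the fetal to adult change of the liver includes a growing dependence on respiration.

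The mt-encoded members need a caution on where their reads could be placed. In map order, mt-Co2, mt-Atp8, mt-Atp6, mt-Co3, mt-Nd3 and mt-Nd4l lie together (chrM:7013-10173, mm10), and their values fell far below those of their neighbours on both sides. Highest among these 6 was mt-Co2, with 73.8 to 532 FPKM over the 16 libraries, and lowest was mt-Atp8, with 1.96 to 38.0 FPKM. By contrast mt-Co1 ranged from 19219 to 100893 FPKM and mt-Cytb from 13571 to 88867 FPKM. Each of the 6 made up at most 0.145% of the summed FPKM of the 13 members.

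**Figure D1:**
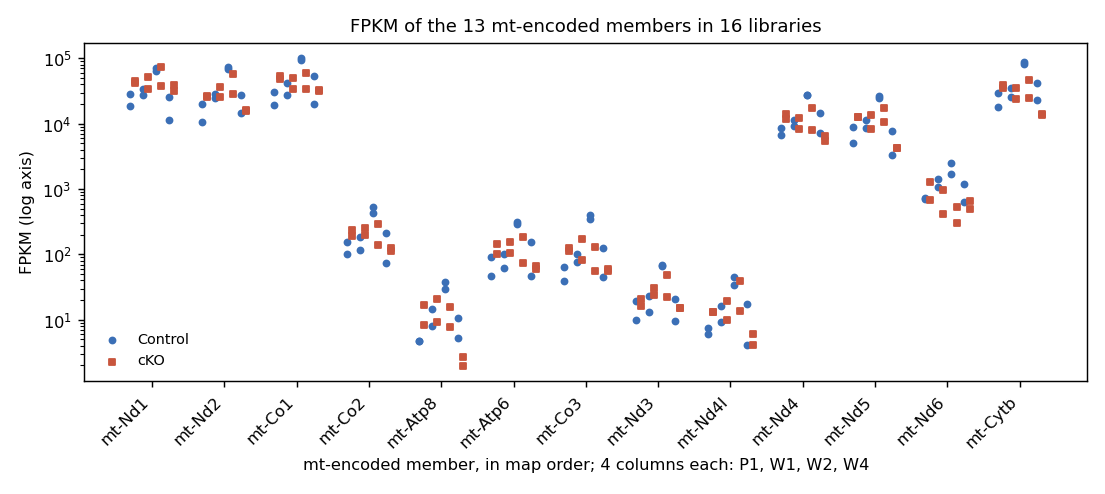
FPKM (log axis) of the 13 mt-encoded members in map order, with 4 columns for each gene (P1, W1, W2, W4), circles for Control and squares for cKO libraries. The 6 neighbouring members from mt-Co2 to mt-Nd4l lie between 1.96 and 532 FPKM, below the 303 to 100893 FPKM of the other 7 members, except that mt-Nd6 overlaps mt-Co2, mt-Co3 and mt-Atp6.

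A nearly identical copy of this stretch lies in the nuclear genome on the minus strand (chr1:24611535-24616197, mm10), annotated as a row of unprocessed pseudogenes. Over the aligned bases, mt-Co2 matched Gm28661 in 681 of 681, mt-Atp6 matched Gm10925 in 678 of 678, mt-Co3 matched Gm28437 in 783 of 783 and mt-Nd4l matched Gm10222 in 294 of 294. A single substitution separated mt-Nd3 from Gm28438 (T3C, counted from the first base of mt-Nd3) and the copied end of mt-Co1 from Gm29216 (A1066T, counted from the first base of mt-Co1). The sequences around both differences are shown, since reads within the identical bases fit both places equally. Capitals mark the base that differs in mt-Nd3 (chrM:9459-9501, plus strand) and in its copy (chr1:24613077-24613119, minus strand), and in mt-Co1 (chrM:6381-6433, plus strand) and its copy (chr1:24616145-24616197, minus strand). The first bases of the mt-Co1 window lie before the point where the aligned stretch starts.
mt-Nd3: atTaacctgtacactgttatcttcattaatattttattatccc
Gm28438: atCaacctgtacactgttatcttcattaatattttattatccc
mt-Co1: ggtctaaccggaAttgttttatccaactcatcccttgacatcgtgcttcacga
Gm29216: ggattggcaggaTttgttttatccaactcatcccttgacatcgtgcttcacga

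Of all windows of 100 bases in each transcript, 97.6% to 99.9% were also found in another gene's transcripts for mt-Co2, mt-Co3, mt-Atp6, mt-Nd3 and mt-Nd4l. The share was 60.8% for mt-Nd4, 30.8% for mt-Co1 and 3.19% for mt-Nd2, and none was shared for mt-Nd1, mt-Nd5, mt-Nd6, mt-Cytb or mt-Atp8. The short mt-Atp8 lies between copied neighbours and shares its last 43 bases with the start of mt-Atp6 (chrM:7927-7969, plus strand), the bases that serve both reading frames.
mt-Atp8 and mt-Atp6: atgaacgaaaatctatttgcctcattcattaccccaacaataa
The pseudogenes were themselves listed at 3.4 to 704 FPKM, with Gm10925 highest, above mt-Atp6 in the same table. The sources used here do not say how reads matching both places were assigned. Values of these 6 members therefore count what was assigned to them and not their transcript levels, and their differences between groups were read with that limit. For mt-Nd6, the only member on the other strand of mitochondrial DNA, no stranded kit is named, so that its reads and those of overlapping or antisense transcripts cannot be told apart. Approximate reads behind the scarcest members were 6 to 93 for mt-Atp8, 13 to 166 for mt-Nd4l and 44 to 285 for mt-Nd3.

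As sums, mt-encoded and nuclear subunits went opposite ways at W2. The mt-encoded members held 55.2% and 56.4% of all summed FPKM in W2 Control and 24.6% and 42.7% in W2 cKO. The nuclear members held 1.31% and 1.59% of the FPKM of nuclear genes in W2 Control, the lowest values of the series, and 2.52% and 2.54% in W2 cKO, the highest. The ratio of mt-encoded to nuclear summed FPKM, a level ratio within a library, was 101 and 86.7 in W2 Control and 13.03 and 29.98 in W2 cKO, and the groups did not overlap. At P1 the order was the other way, with 13.9 and 8.79 in Control and 28.1 and 20.8 in cKO. At W1 (24.1 and 16.3 against 14.8 and 23.2) and at W4 (9.75 and 20.3 against 12.5 and 10.9) the groups overlapped. With 2 libraries against 2 an exact two-sided permutation test cannot go below 0.333, so the ratio was not tested. It was nearly the same without mt-Atp8, mt-Nd4l and mt-Nd6.

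**Figure D2:**
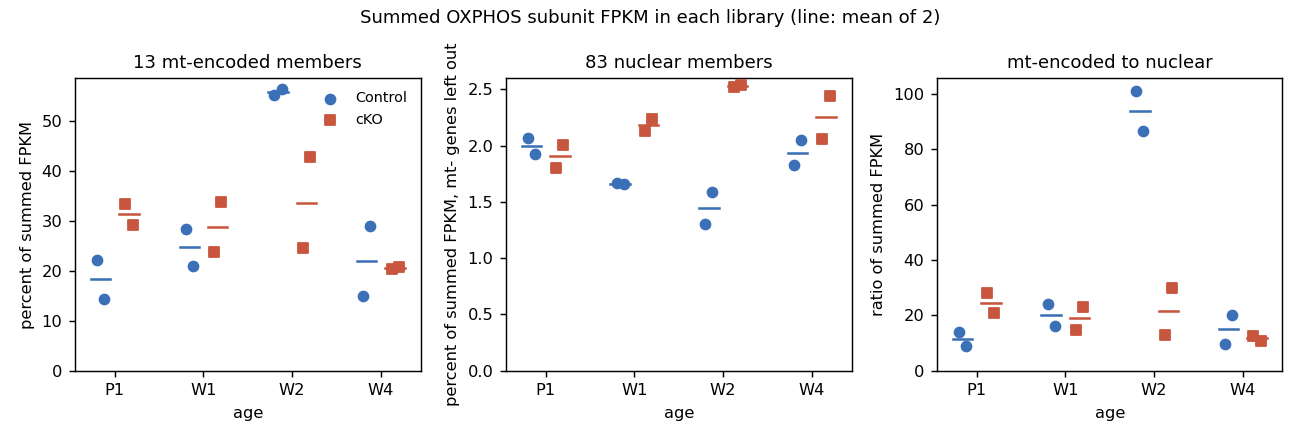
Summed FPKM of the 13 mt-encoded members (percent of all FPKM), of the 83 nuclear members (percent of FPKM with mt- genes left out) and their ratio, by age, with circles for Control and squares for cKO libraries and lines for the mean of 2. The W2 Control libraries have the highest ratios, 101 and 86.7, and the lowest nuclear shares, 1.31% and 1.59%.

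Because mt- genes take up so much of the total, a nuclear gene measured on the deposited scale drops whenever they rise. Nuclear members are therefore given on a nuclear scale, with mt- genes removed and each library rescaled to the same total, and mt-encoded members on the deposited scale. Differences are log2 fold changes of FPKM + 1 with their standard error (SE), from limma, and a call needed an adjusted p (Benjamini-Hochberg) under 0.05 over all genes tested. The pseudocount of 1 FPKM shrinks the changes of low genes. Of the 83 nuclear members 81 passed the filter of 1 FPKM in 2 libraries, and the remaining 2, Cox7b2 and Cox8c, paralogs known from testis, were listed at 0 in every library.

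Among mt-encoded members no difference between cKO and Control was called at P1 or W1. All 13 log2 fold changes were positive at P1 (median 0.85, from 0.38 to 1.24), though not called, with 0.168% of all genes called there. At W1 the median was 0.27 with 4.83% of all genes called. The median SE of a member was 0.45.

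At W2, 5 of the 13 were lower in cKO, namely mt-Nd6, mt-Co3, mt-Atp8, mt-Cytb and mt-Nd4, against 4.49% of all genes called lower. For mt-Cytb, the cytochrome b of complex III, the deposited FPKM was 88867 and 82871 in W2 Control and 24562 and 46776 in W2 cKO. The groups did not overlap and the log2 fold change was -1.34 ± 0.42 (SE, limma adjusted p = 0.0311). mt-Nd6, a membrane subunit of complex I, read 2496 and 1715 FPKM in W2 Control and 303 and 537 FPKM in W2 cKO, with a log2 fold change of -2.35 ± 0.46 (limma adjusted p = 0.00262). mt-Nd4, another membrane subunit of complex I, changed by -1.23 ± 0.41 (limma adjusted p = 0.0415). Of the 5 calls, mt-Co3 (-2.12 ± 0.48) rests on the copied stretch and mt-Nd4 lies in part in it. mt-Atp8 (-1.52 ± 0.44) lies between copied neighbours. mt-Nd1 was the member with the smallest difference at W2 (-0.34 ± 0.46, limma adjusted p = 0.624), with 71981 and 63359 FPKM in Control against 38167 and 74780 FPKM in cKO, which overlap. The count depended on single libraries. It was 1 without W2 cKO replicate 1, 9 without W2 cKO replicate 2 and 2 without either W2 Control library. Against the mean of the W1 and W4 Control libraries in place of W2 Control, a comparison added after seeing the data, 1 member was higher and 1 lower, with 9.01% of all genes called higher and 11.2% lower, and the median log2 fold change was 0.51 in place of -1.23.

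At W4, mt-Cytb (-1.18 ± 0.42, limma adjusted p = 0.0284) and mt-Atp8 (-1.36 ± 0.44, limma adjusted p = 0.0189) were lower in cKO, with 12.4% of all genes called lower. mt-Cytb read 23183 and 41795 FPKM in W4 Control and 13571 and 13905 FPKM in W4 cKO. mt-Nd1 lay the other way, with 11552 and 25907 FPKM in Control against 31914 and 39421 FPKM in cKO, and was not called (1.04 ± 0.46, limma adjusted p = 0.0676). Without W4 Control replicate 2 the count was 1, and that member was higher in cKO. It was 4 without W4 Control replicate 1, 0 without W4 cKO replicate 1 and 1 without W4 cKO replicate 2.

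The make-up of the mt-encoded RNA, which no scaling between libraries can alter, differed between genotypes in mt-Cytb and mt-Nd1. Neither gene shares a 100-base window with another gene. As a share of the 13 members' summed FPKM, mt-Cytb was 23.1% and 22.9% in P1 Control and 20.5% and 20.0% in P1 cKO. It was 21.6% and 20.6% against 17.9% and 17.6% at W1, and 23.3% and 22.1% against 17.1% and 16.9% at W2. At W4 it was 28.8% and 24.2% in Control and 13.1% and 12.3% in cKO. The cKO libraries were below the Control libraries at each of the 4 ages. mt-Nd1, a core membrane subunit of complex I, had shares close together at P1 (22.6% and 23.4% against 23.3% and 23.5%). They lay further apart at W4, at 14.3% and 15.0% in Control and 30.7% and 34.9% in cKO.

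The ratio of mt-Nd1 to mt-Cytb FPKM joined both. In Control it was 0.978 and 1.02 at P1, 0.956 and 1.06 at W1, 0.81 and 0.765 at W2, and 0.498 and 0.62 at W4. In cKO it was 1.14 and 1.18 at P1, 1.402 and 1.463 at W1, 1.55 and 1.6 at W2, and 2.35 and 2.84 at W4. All 8 cKO libraries (1.14 or more) were above all 8 Control libraries (1.06 or less), and the distance was widest at W4. This pair was chosen after its values were seen, so no p is given. Among the 78 ratios of a pair of mt-encoded members, 3 separated the genotypes in the same direction at all 4 ages, and 2 separated all 8 cKO from all 8 Control libraries. Among the 21 pairs that leave out the neighbouring members from mt-Co2 to mt-Nd4l, the counts were also 3 and 2. Each of the 3 contained mt-Cytb, paired with mt-Nd1, mt-Nd5 or mt-Co1. Of the windows of mt-Co1, 30.8% are shared with another gene. At W1 the Control libraries were male and the cKO libraries female, while at W2 and W4 all 8 libraries were male. The part of sex in these ratios was not tested.

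**Figure D3:**
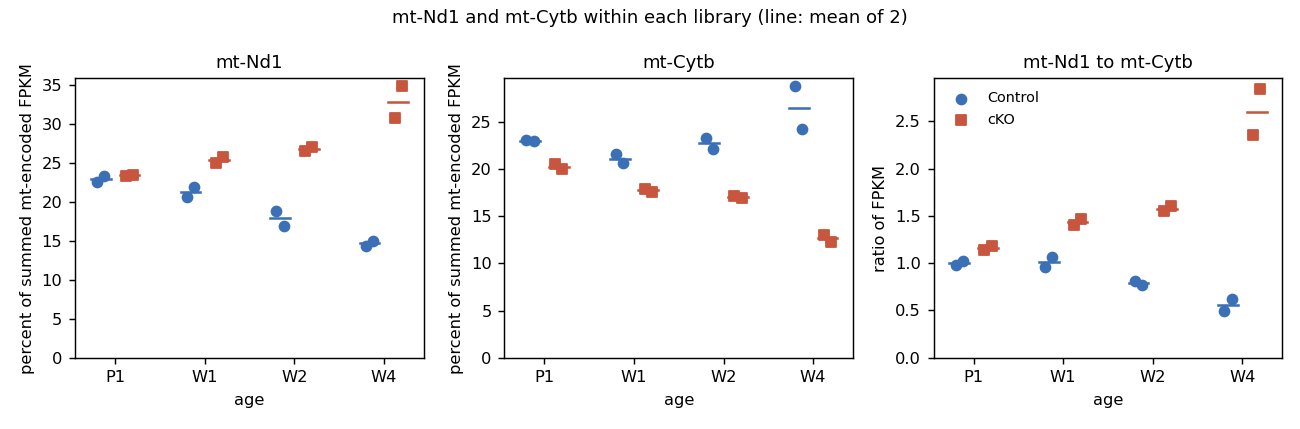
Share of mt-Nd1 and of mt-Cytb in the summed FPKM of the 13 mt-encoded members (percent) and the ratio of mt-Nd1 to mt-Cytb FPKM, by age, with circles for Control and squares for cKO libraries and lines for the mean of 2. The ratio is between 1.14 and 2.84 in the cKO libraries and between 0.498 and 1.06 in the Control libraries.

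With age, mt-encoded members rose and fell around W2 in Control. From P1 to W1 none was called in Control (30% of all genes called in either direction). From W1 to W2 11 of 13 rose (2.09% of all genes called higher), and mt-Nd1 (1.15 ± 0.46) and mt-Nd6 (0.74 ± 0.46) did not pass the test. From W2 to W4 all 13 fell (12.7% of all genes called lower), by 1.25 to 2.34 on the log2 scale. Both steps use the same 2 W2 Control libraries, as does the W2 comparison of genotypes, so the 3 results are not independent. The first step called 2 members without W2 Control replicate 1, 4 without W2 Control replicate 2, 6 without W1 Control replicate 1 and 2 without W1 Control replicate 2. The second called 7 without W2 Control replicate 1, 8 without W2 Control replicate 2 and 4 without W4 Control replicate 1. From P1 to W4 none was called in Control (54.4% of all genes called). In cKO no member was called from P1 to W1 (19.9% of all genes) or from W1 to W2 (14.5% of all genes). From W2 to W4 6 fell in cKO, among them mt-Nd5 (-1.70), mt-Nd2 (-1.36) and mt-Cytb (-1.30), with 9.17% of all genes called lower. That count was 0 without W2 cKO replicate 2, 3 without W4 cKO replicate 1 and 2 without W4 cKO replicate 2. From P1 to W4 4 fell in cKO (mt-Atp8, mt-Cytb, mt-Nd4 and mt-Nd5), with 25.4% of all genes called lower, and 2 without P1 cKO replicate 1. The cKO libraries were female at P1 and W1 and male at W2 and W4. Age and sex therefore cannot be told apart from W1 to W2 or from P1 to W4 in cKO.

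The nuclear members varied widely in level. Their mean FPKM over the 16 libraries had a median of 66.5, and 12 of the 83 lay under 10. The highest of each complex were Ndufa6 of complex I (239 FPKM), Sdhb, the iron-sulfur subunit of complex II (104), Uqcrb of complex III (407), Cox6a1 of complex IV (485) and Atp5b, the catalytic beta subunit of ATP synthase (262). These means count exon bases of all annotated isoforms, so a gene with long rarely used exons reads low. Ndufa12, Atp5h, Atp5l and Cox7c share bases with processed copies whose highest listed values were 96.4 to 133 FPKM. How reads fitting both were assigned is not stated, so the values of these members depend on it.

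At P1 no nuclear member differed between cKO and Control, with a median log2 fold change of -0.06 and 0.262% of all genes called. At W1 5 of 81 were higher and none lower, a share of members not far from the 5.21% of all genes called higher. These were Cox6b2 (1.5 ± 0.33), a complex IV isoform known from testis, Uqcr10 (0.83 ± 0.19) and Uqcrfs1 (0.67 ± 0.17) of complex III, the latter being the Rieske iron-sulfur protein, and Ndufs4 (0.65 ± 0.16) and Ndufb6 (0.68 ± 0.18) of complex I. Their limma adjusted p ran from 0.020 to 0.0473. Exons of another gene overlie 39% of the exon bases of Ndufb6, so its value may include reads of that gene. Uqcr10 read 178 and 207 FPKM on the nuclear scale in W1 Control and 332 and 350 FPKM in W1 cKO. Cox6b2 read 15.0 and 15.1 FPKM in W1 Control and 54.0 and 36.3 FPKM in W1 cKO. In both genes the groups did not overlap. None of the 5 remained called without any single one of the 4 W1 libraries, 3 members were called without either P1 Control library and 8 without either W4 Control library. With a term for sex none was called.

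At W2 50 of the 81 nuclear members were higher in cKO and none was lower, while 10.9% of all genes were called higher. The median log2 fold change was 0.73 over the members and -0.09 over all genes tested. By complex, 20 of 37 tested members of complex I, 3 of 4 of complex II, 7 of 8 of complex III, 9 of 16 of complex IV and 11 of 16 of complex V rose. On the deposited scale 64 rose and none fell (24.6% of all genes called higher). Without W2 cKO replicate 1 the number was 32, and with any other library left out it was within 1.5 times of 50.

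**Figure D4:**
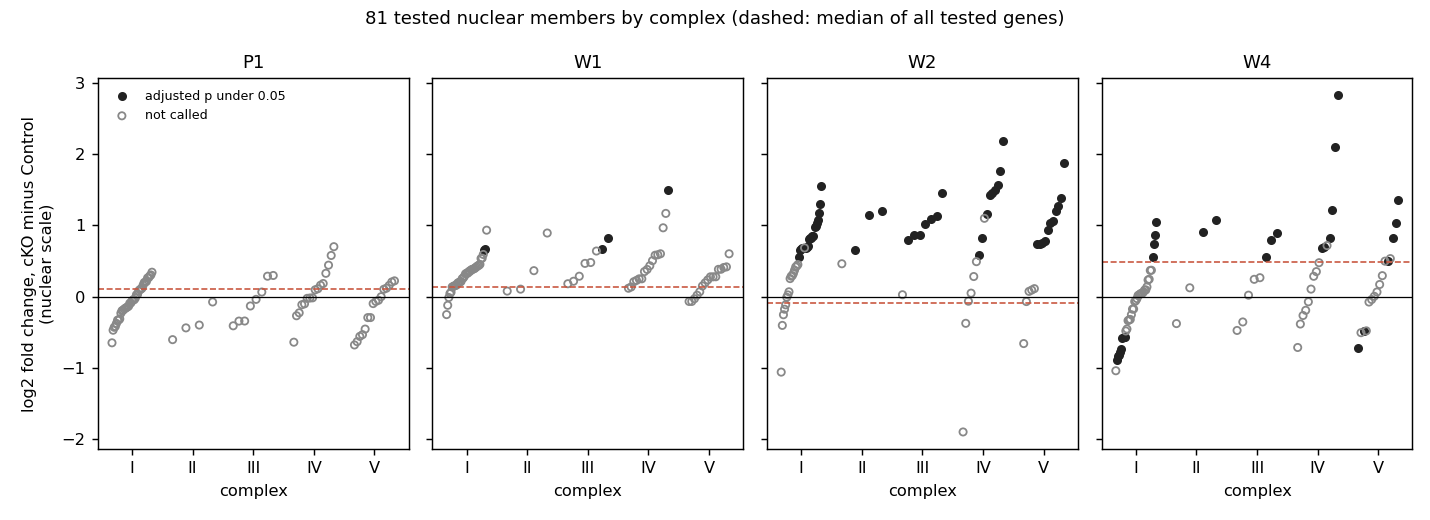
Log2 fold change of cKO minus Control on the nuclear scale for the 81 tested nuclear members, by age and by complex, with filled points for members called at an adjusted p under 0.05 and a dashed line for the median of all tested genes. At W2 50 members are called above 0 and none below, and at W4 19 are called above 0 and 10 below.

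In complex IV, Cox6a1, the liver form of subunit VIa, read 174 and 184 FPKM on the nuclear scale in W2 Control and 765 and 875 FPKM in W2 cKO. Its log2 fold change was 2.18 ± 0.18 (limma adjusted p = 3.16e-05), the largest rise among the members, and both W2 Control libraries were below the other 14, which read 335 or more. Cox8a, the ubiquitous form of subunit VIII, read 120 and 154 FPKM in Control against 429 and 380 FPKM in cKO (1.57 ± 0.17, limma adjusted p = 0.000121). Cox5a, a nuclear subunit with a regulatory role, rose by 1.76 ± 0.34 and Cox7a2 by 1.42 ± 0.18. Cox4i1, which is needed for assembly of the complex, read 204 and 265 FPKM in Control against 569 and 480 FPKM in cKO (1.16 ± 0.17, limma adjusted p = 0.000841).

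In complex I, Ndufs4, an accessory subunit whose loss causes Leigh-like disease in mice, read 12.4 and 15.0 FPKM in W2 Control and 36.7 and 33.3 FPKM in W2 cKO (1.30 ± 0.16, limma adjusted p = 0.000236). Ndufa1, a small membrane subunit, rose by 1.18 ± 0.18. Sdhc and Sdhd, the membrane anchors of complex II, rose by 1.20 ± 0.16 and 1.14 ± 0.25. In complex III, Uqcr10 read 129 and 136 FPKM in Control against 382 and 351 FPKM in cKO (1.46 ± 0.19, limma adjusted p = 0.000398) and Uqcrfs1 rose by 1.13 ± 0.17. In complex V, Atp5c1, the gamma subunit of the rotor, rose by 1.27 ± 0.19 and Atp5o, which links the catalytic head to the stator, by 1.21 ± 0.19. The annotation places exons of other entries over 47.9% of the exon bases of Atp5o. They are a second entry named Atp5o on the same strand, and D430001F17Rik and Gm15976 on the opposite strand. The value may therefore include their reads or miss reads placed on the second Atp5o entry.

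The other 31 tested members were not called. Among them, the complex I subunits Ndufs8, which carries iron-sulfur clusters, and Ndufa5 had log2 fold changes of -0.25 ± 0.22 and -0.18 ± 0.30 at W2 (limma adjusted p = 0.42 and 0.703), and Uqcrb 0.03 ± 0.27. Ndufs8 read 110 and 131 FPKM in W2 Control and 86.8 and 116 FPKM in W2 cKO, which overlap. These 3 were named after their values were seen.

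Since the W2 Control libraries stood apart, the W2 cKO libraries were also set against the mean of the W1 and W4 Control libraries, a comparison added after seeing the data. There 22 of 81 nuclear members were higher and none lower, with a median log2 fold change of 0.33 (0.03 over all genes) and with 11.3% of all genes called higher and 7.61% lower. Of the 50 members called against W2 Control, 17 were called again, and 5 were called there alone. Cox6a1 (1.07), Uqcr10 (1.01), Uqcrfs1 (0.84), Ndufa10 (0.81) and Cox8a (0.65) were among the 17. Ndufa4 was not among them. Its level fell to 24.3 and 29.2 FPKM in W2 Control from 64.8 and 70.6 FPKM in W1 Control, rose to 144 and 109 FPKM in W4 Control, and in W2 cKO stood at 100 and 64.6 FPKM. Against W2 Control it was 1.56 ± 0.25 higher, and against W1 and W4 Control -0.19.

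At W4 the nuclear members split. In cKO 19 were higher and 10 lower, with 47.9% of all genes called higher and 11% lower. Their median log2 fold change was 0.05, against 0.48 over all genes. On the deposited scale it was -0.01 with 16 higher and 14 lower, and after median-of-ratios rescaling -0.50 with 3 higher and 40 lower, so the direction of the whole set at W4 rests on the scale. Without W4 Control replicate 2, 12 were higher and 1 lower, without W4 cKO replicate 1 17 higher and 2 lower, and without W4 Control replicate 1 20 higher and 19 lower. Of the 50 members higher at W2, 16 were also higher at W4, where 47.9% of all genes were called higher, and 2 were lower. The 2 comparisons share no library. They do share the spread of each gene, estimated over all 16 libraries, so they are not independent.

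In complex IV, Cox7a2l read 38.6 and 22.4 FPKM in W4 Control and 127 and 132 FPKM in W4 cKO (2.1 ± 0.31, limma adjusted p = 8.52e-05). C57BL/6 mice are known to carry a shortened form of its protein. Cox6a2, the heart and skeletal muscle form of subunit VIa, was listed at 0.101 and 0 FPKM in W4 Control and at 4.12 and 9.82 FPKM in W4 cKO (2.83 ± 0.45, limma adjusted p = 0.000159). At its highest this was about 76.0 reads, and exons of another gene overlie 10.3% of the exon bases of Cox6a2. Atp5b read 278 and 183 FPKM in Control against 594 and 564 FPKM in cKO (1.36 ± 0.24, limma adjusted p = 0.000388), and Atp5a1, the alpha subunit beside it in the catalytic head, rose by 1.03 ± 0.28. Sdha, the flavoprotein of complex II, rose by 0.91 ± 0.22 and Sdhd by 1.07 ± 0.25. In complex III Uqcr10 rose by 0.89 ± 0.19 and the core protein Uqcrc1 by 0.79 ± 0.18. In complex I Ndufb8, a widely used marker of assembled complex I, rose by 1.04 ± 0.20.

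Of the 10 members that fell at W4, 8 belong to complex I (Ndufa3, Ndufa5, Ndufa6, Ndufa13, Ndufb2, Ndufb7, Ndufb9 and Ndufs8) and 2 to complex V (Atp5g1 and Atp5j). They were named because the count was small. Ndufb7 read 18.3 and 25.3 FPKM in W4 Control and 11.6 and 13.7 FPKM in W4 cKO (-0.73 ± 0.17, limma adjusted p = 0.00237). Ndufs8 read 74.2 and 114 FPKM in Control against 48.2 and 55.1 FPKM in cKO (-0.83 ± 0.22, limma adjusted p = 0.00589). In both the cKO libraries were the lowest of the 16. No member of complexes II, III or IV was called lower on this scale. Exons of other genes overlie 30% of the exon bases of Ndufa13 and 19.5% of those of Ndufb9. Atp5g1 shares bases with a processed copy listed at higher values, so its fall depends on how reads were assigned.

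Other cell types moved with these differences at W4. All 8 macrophage, all 8 endothelial, all 8 stellate cell and all 7 ductal markers were higher in W4 cKO. Of 9 hepatocyte markers 5 were lower and 1 higher, with 47.9% of all genes called higher and 11% lower at W4. The summed FPKM of the ductal list was 18.2 and 18.9 in W4 Control and 326 and 204 in W4 cKO, and Sox9 among them was under 1 FPKM in 14 of the 16 libraries. The stellate list summed to 44.1 and 47.9 FPKM in Control against 377 and 254 FPKM in cKO, the macrophage list to 122 and 86.7 against 364 and 334, and the endothelial list to 52.1 and 51.5 against 156 and 167. The hepatocyte list summed to 78164 and 68693 FPKM in W4 Control and 48533 and 49960 FPKM in W4 cKO. The part of these cells in the subunit values was not tested. At W2 markers of blood cells were lower in cKO (5 of 7 lymphocyte, 3 of 8 neutrophil and 4 of 10 erythroid markers, with 15.3% of all genes called lower), and their part was not tested either. Of the hepatocyte markers 3 of 9 were higher and none lower in W2 cKO, where 10.9% of all genes were called higher. Their median log2 fold change was 0.26 against -0.09 over all genes. Their summed FPKM was 52426 and 50823 in W2 Control and 105606 and 81055 in W2 cKO, the opposite order to W4, and its part was not tested.

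Averaged over the 4 ages, 39 of 81 nuclear members were higher in cKO and none lower, with 36.3% of all genes called higher, and medians of 0.23 over members and 0.17 over all genes. After median-of-ratios rescaling these medians were 0.04 and 0.01. The average includes the W2 comparison, with the W2 Control libraries that stood apart. Cox6a1 (0.83 ± 0.09), Cox8a (0.71 ± 0.09) and Uqcr10 (0.76 ± 0.10) had the smallest adjusted p. Whether the difference between genotypes depended on age was tested with an F test over the 4 ages. It passed for 51 of 81 nuclear members, where 52.7% of all genes passed on that scale, and for 5 of 13 mt-encoded members, where 49.6% of all genes passed.

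**Figure D5:**
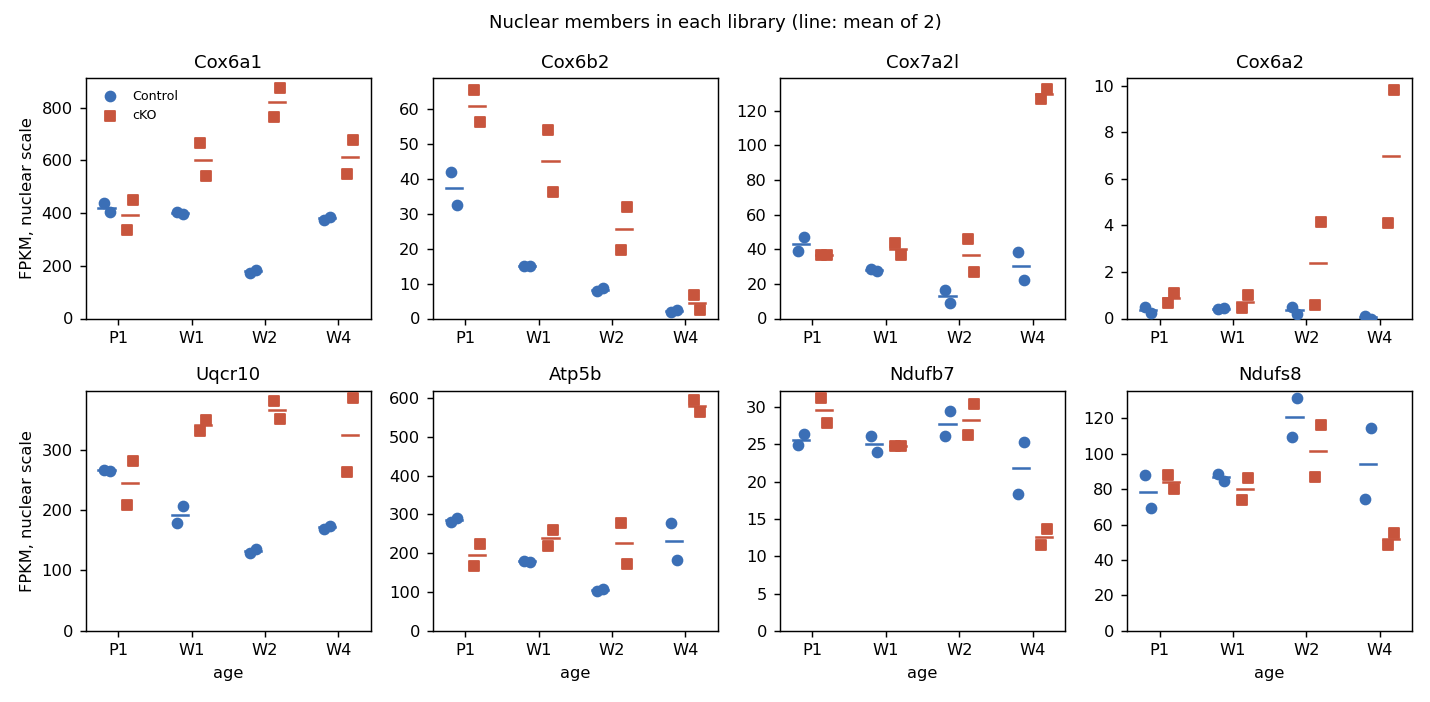
FPKM on the nuclear scale (mt- genes removed, each library rescaled to one total) of 8 nuclear members by age, with circles for Control and squares for cKO libraries and lines for the mean of 2. Cox6a1 and Uqcr10 are lowest in W2 Control, Cox6b2 falls with age, Cox7a2l and Atp5b are highest in W4 cKO, Cox6a2 is highest in W4 cKO replicate 2, and Ndufb7 and Ndufs8 are lowest in both W4 cKO libraries.

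In Control, the nuclear members followed age as well. From P1 to W1 7 fell and none rose (19.7% of all genes called lower), among them Cox6b2, Ndufa12 and Sdhd. That count was 0 without P1 Control replicate 1 or W1 Control replicate 2, 2 without P1 Control replicate 2 and 1 without W1 Control replicate 1, and 11 or 12 without W4 Control or W2 cKO libraries, each left out singly. From W1 to W2 16 fell and 2 rose, with 9.01% of all genes called lower and 10.2% higher, and Atp5g3 (-1.51 ± 0.32), which encodes a c-ring proteolipid of ATP synthase, fell furthest. Without W1 Control replicate 2 6 were called, and without W2 Control replicate 1 7. From W2 to W4 36 rose and 4 fell, with 12.7% of all genes called higher and 29.3% lower, and Ndufa4 rose by 2.19 ± 0.25. Without W2 Control replicate 1, 22 rose and 3 fell. Between P1 and W4 Control 4 rose (Cox7a1, Ndufa6, Ndufb2 and Sdhb) and 5 fell (Cox6b2, Atp5g2, Ndufa2, Ndufa7 and Uqcr10), with 13% of all genes called higher and 37.6% lower. On the median-of-ratios scale 11 rose and 1 fell, and the count was 1 without P1 Control replicate 1, 2 without P1 Control replicate 2 and 5 without W4 Control replicate 2. Among the cKO libraries 2 members rose from P1 to W1 (4.75% of all genes called higher). That count was 0 without P1 cKO replicate 1 or W1 cKO replicate 1, 1 without W1 cKO replicate 2, and 4 without P1 cKO replicate 2 or without any single W2 Control or W4 cKO library. None was called from W1 to W2 (12.1% of all genes called). From W2 to W4 12 rose and 30 fell in cKO, with 39.3% of all genes called higher and 9.27% lower, and 16 of those that fell belong to complex I. Without W2 cKO replicate 2 6 rose and 17 fell, and without W4 cKO replicate 1 10 rose and 11 fell. From P1 to W4 28 rose and 15 fell in cKO (30% of all genes called higher and 25.6% lower), and 16 rose and 7 fell without P1 cKO replicate 1. With a sex term fewer members were called from P1 to W4 in cKO. The cKO libraries were female at P1 and W1 and male at W2 and W4. In cKO, age and sex therefore cannot be told apart from W1 to W2 or from P1 to W4.

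Several subunits exist as paralogs with different tissue use, and 3 of these showed their own course. Cox6b2 was 42.0 and 32.5 FPKM on the nuclear scale in P1 Control, 15.0 and 15.1 at W1, 7.75 and 8.61 at W2 and 1.88 and 2.38 at W4. In the cKO libraries it was 65.5 and 56.2 at P1, 54.0 and 36.3 at W1, 19.5 and 32.0 at W2 and 6.73 and 2.40 at W4. From P1 to W4 it fell by 3.60 ± 0.33 in Control (limma adjusted p = 1.96e-06) and by 3.59 ± 0.33 in cKO on the log2 scale. In cKO the P1 libraries were female and the W4 libraries male, so age and sex cannot be told apart in that fall. It was higher in cKO at W1 (1.5 ± 0.33) and W2 (1.5 ± 0.33), and not called at W4 (0.72 ± 0.33, limma adjusted p = 0.081). As a percentage of the FPKM of Cox6b1, the general form, it went from 12.7% and 10.97% in P1 Control to 0.858% and 0.673% in W4 Control, and stood at 16.5% and 11.1% in W1 cKO beside 4.74% and 5.38% in W1 Control.

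Cox6a2 remained a small fraction of Cox6a1 in all libraries, at most 1.45%, the value of W4 cKO replicate 2. Of the 10 skeletal muscle markers, 9 were under 1 FPKM in all 16 libraries, Ckm and Acta1 among them, and Mylpf reached 10.2 FPKM. Cox7a1, the muscle form of subunit VIIa, ranged from 0.572 to 6.02 FPKM (about 4.4 to 38.6 reads) and was not called between genotypes at any of the 4 ages. Its highest value was in W2 Control replicate 1, beside about 8.8 reads in W2 Control replicate 2 and 36.4 in W2 cKO replicate 1. Cox8b, the muscle and brown fat form of subunit VIII, was listed at 9.26 FPKM in W2 Control replicate 1, about 40 reads, and at 1.16 FPKM or less in each of the other 15 libraries. The same library held the brown fat markers Ucp1 at 8.20 FPKM and Cidea at 2.29 FPKM, which were at 0.0893 and 0.286 FPKM or less in the others. The whole brown fat list, as a sum, was not highest in this library. Its summed FPKM was 14.1 there and 3.28 in W2 Control replicate 2. The sum was highest in W4 Control replicate 1, at 60.7 FPKM, and stood at 14.3 FPKM in W4 cKO replicate 1. In both of these libraries Ucp1 and Cidea were at most 0.0893 and 0.286 FPKM, so other genes of the list made up the sums. The part of brown fat in the remaining values of W2 Control replicate 1 was not tested. Ucp1 and Cidea were listed at 0 in W2 Control replicate 2.

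Among the remaining paralogs, Cox4i2, the hypoxia and lung form of subunit IV, stayed at 0.195 to 1.41 FPKM and Ndufa4l2, which is induced by hypoxia, at 1.30 to 2.50 FPKM, and neither was called between genotypes. The 3 genes for the same c-ring protein differed. Atp5g3 was listed highest and rose at W2 (1.88 ± 0.32) and W4 (0.82 ± 0.32). Atp5g1 rose at W2 (0.74 ± 0.18) and fell at W4 (-0.48 ± 0.18), and Atp5g2 was not called at either. Processed copies of Atp5g1 and Atp5g2 exist, and windows of 100 bases shared with other genes made up 5.94% and 34.7% of their transcripts. The Atp5g1 copy Gm10039 was listed at 27.2 to 137 FPKM, where Atp5g1 read 6.31 to 15.2 FPKM on the nuclear scale. How reads fitting both were assigned is not stated, so the level and the differences of Atp5g1 depend on it. Cox7b and Cox6b1 were not called at W4 (-0.38 ± 0.21 and -0.19 ± 0.25).

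Other genes needed to build and run the complexes were taken from lists. The mitochondrial ribosome translates the mt-encoded members. Its proteins were higher in cKO for 23 of 77 at W1 and for 42 of 77 at W2, with 1 lower at W2. At W4 46 of 77 were higher and 5 lower. Their median log2 fold changes were 0.48, 0.62 and 0.58, against 0.14, -0.09 and 0.48 over all genes. The shares of all genes called higher were 5.21%, 10.9% and 47.9%, and 15.3% were called lower at W2 and 11% at W4. The lists were counted on the nuclear scale alone. After median-of-ratios rescaling the median over all nuclear genes at W4 was 0.08. Assembly factors of complex IV rose in 4 of 17 at W1, 5 at W2 and 7 at W4 (3 fell at W4). Coa7 rose by 1.74 ± 0.17 at W1, 1.77 ± 0.17 at W2 and 1.69 ± 0.17 at W4. Of the assembly factors of complex I, 4 of 15 rose and 1 fell at W2, and Ndufaf1 rose by 1.26 ± 0.18, while at W4 7 rose and 2 fell. Of the factors for complexes II, III and V, 4 of 13 rose at W2 and 5 at W4, with none lower. Among genes for ubiquinone synthesis and electron carriers 3 of 16 rose and 1 fell at W2, and 8 rose and 2 fell at W4, among them Coq2 (1.35 ± 0.19), which attaches the isoprenoid tail, and Coq8a (-1.27 ± 0.21).

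Among genes that transcribe mitochondrial DNA, at W2 2 of 10 were higher and 4 lower in cKO, with 10.9% of all genes called higher and 15.3% lower. The 4 were Mterf1a, Mterf1b, Mterf3 and Tfb2m, a transcription initiation factor (-0.47 ± 0.15). Mterf4 (0.65 ± 0.17) and the elongation factor Tefm (0.84 ± 0.26) were higher. Mterf1a and Mterf1b are near-identical paralogs whose reads may be split between them. Of the genes for mitochondrial RNA processing 1 of 19 rose at W2, and 11 rose and 2 fell at W4, with Fastkd2 (1.17 ± 0.18) and Elac2, which cuts transfer RNA ends (1.09 ± 0.20), among those that rose. Of the replication genes 1 of 11 fell at W2 and 5 rose and 1 fell at W4, where Polg2, the accessory subunit of the polymerase, fell by 1.14 on the log2 scale. At W4 47.9% of all genes were called higher and 11% lower.

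Of 12 transcriptional regulators of respiratory genes none rose and 2 fell at W2 (Sirt3 and Sirt1), with 15.3% of all genes called lower. At W4 5 rose, including Nrf1 (0.83 ± 0.18), Gabpa (0.85 ± 0.20) and the coactivator Pprc1 (1.52 ± 0.25), and 2 fell, of which Sirt3, a mitochondrial deacetylase, changed by -1.18 ± 0.15. Of all genes 47.9% were called higher and 11% lower at W4. The tricarboxylic acid cycle, which shares complex II with the chain, had 6 of 16 genes higher at W2, where 10.9% of all genes were, and 9 higher with 1 lower at W4, where 47.9% and 11% of all genes were. Mdh2 rose by 1.72 ± 0.25 at W2 and 1.76 ± 0.25 at W4, and Idh2 by 1.22 ± 0.25 and 1.73 ± 0.25.

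The promoters of nuclear members, called or not, were examined for letters bound by factors known for respiratory genes. RefSeq promoter windows (GRCm38.p6, 250 bases before to 50 after the start) were matched for 67 of the 83 nuclear members, giving 72 windows, and were searched on both strands. The NRF1 motif GCGCATGCG was in 8 of the 72 (11.1%, against 3.48% of 12514 windows of all genes), and the YY1 motif AAGATGGCG in 7 (9.72% against 2.89%). The ESRRA motif CAAGGTCA was in 4 (5.56% against 1.09%), and the CREB1 motif TGACGTCA in 4 (5.56% against 2.88%). The GABPA motif CCGGAAGT was in 5 (6.94% against 7.65%) and the HNF4A motif CAAAGTCCA in none (against 0.575%). Any of these motifs was in 25 of the 72 windows. Members that rose at W2 without a match include Uqcr10 and Ndufb10. A match is a description of letters and no binding was measured here. One window each is shown for 4 members that rose at W2, chosen because each holds a different motif, in capitals. They are Cox6a1 (chr5:115348909-115349208, minus strand), where the NRF1 letters read on both strands and overlap, Cox8a (chr19:7217567-7217866, minus strand) with 2 GABPA matches, Ndufs4 (chr13:114388045-114388344, minus strand) with a YY1 match and Atp5g3 (chr2:73911277-73911576, minus strand) with an ESRRA match.
Cox6a1: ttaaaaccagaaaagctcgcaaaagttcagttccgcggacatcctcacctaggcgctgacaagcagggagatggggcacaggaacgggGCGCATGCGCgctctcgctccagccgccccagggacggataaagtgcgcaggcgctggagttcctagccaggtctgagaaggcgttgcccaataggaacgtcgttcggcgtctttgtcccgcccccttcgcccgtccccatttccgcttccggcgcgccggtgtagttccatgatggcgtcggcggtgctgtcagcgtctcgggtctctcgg
Cox8a: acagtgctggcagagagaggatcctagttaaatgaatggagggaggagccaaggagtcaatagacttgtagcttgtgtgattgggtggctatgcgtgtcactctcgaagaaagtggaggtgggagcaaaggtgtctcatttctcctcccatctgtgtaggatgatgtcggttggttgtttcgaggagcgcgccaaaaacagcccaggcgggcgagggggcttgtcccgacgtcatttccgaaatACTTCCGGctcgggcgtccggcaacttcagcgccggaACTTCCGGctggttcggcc
Ndufs4: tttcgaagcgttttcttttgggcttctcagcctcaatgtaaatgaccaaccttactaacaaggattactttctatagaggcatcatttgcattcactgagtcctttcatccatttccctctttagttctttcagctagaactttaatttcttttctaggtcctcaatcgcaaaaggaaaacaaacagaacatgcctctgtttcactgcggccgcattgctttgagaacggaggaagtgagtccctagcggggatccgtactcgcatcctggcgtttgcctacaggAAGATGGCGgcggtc
Atp5g3: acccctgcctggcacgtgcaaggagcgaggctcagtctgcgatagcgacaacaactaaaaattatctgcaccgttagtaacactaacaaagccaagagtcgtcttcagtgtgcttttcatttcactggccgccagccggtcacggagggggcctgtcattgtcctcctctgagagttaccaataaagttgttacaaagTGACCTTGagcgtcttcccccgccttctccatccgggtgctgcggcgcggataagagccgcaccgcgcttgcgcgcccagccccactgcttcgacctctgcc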

How the data were processed

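RNA was measured in 16 libraries of mouse liver (8 groups of 2). The deposited table gave 1 value per gene and library for 53379 genes. Per the study's methods the authors aligned reads to mm10 with HISAT2 and used DESeq2 for their own comparisons, and no source used here says how reads were counted. The unit was not stated and was taken as FPKM, since deposited values multiplied by exon length rose in steps of 1 read. Whole reads came out for 30.9% of member values (within 0.05 reads), so that reads behind members are approximate and no count test was run. All 16 columns matched a sample.

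The members and gene lists were chosen with earlier results of these data known. Genes at 1 FPKM or more in 2 libraries were tested with limma 3.58.1 (R 4.3.3, trend) on log2(FPKM + 1) over all 8 groups without a block, 14913 genes on the deposited scale and 14879 on the nuclear scale. Replicate numbers in the labels could pair libraries, but were not taken to do so. Named were all mt-encoded members, up to 2 called nuclear members per complex and comparison with the smallest adjusted p, all paralogs, the highest member of each complex, the 3 largest and 3 lowest Control changes from P1 to W4 and up to 3 called genes per list. Other members are named where stated or as examples of a count. Sex was read from sex-linked genes. Alternatives were other scales, no filter, a pseudocount of 0.1, a sex term, a replicate block, each age alone and each library left out. The nuclear-total scale with mt- genes kept and the W1 and W4 Control comparison were chosen after seeing the data. The limma step was tested on simulated data. One item that the naming rule selects is not reported here.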

Additional observations from a re-analysis of the deposited data

Results flagged for a closer look

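The difference between cKO and Control depended on age, by the limma F test of the interaction with Benjamini-Hochberg adjustment, for 51 of the 81 tested nuclear members and for 5 of the 13 mt-encoded members. Over all genes the same test passed for 52.7% on the nuclear scale and 49.6% on the deposited scale. The nuclear members with the smallest adjusted p were Cox6a1 (0.000205), Cox8a (0.0018), Ndufb10 (0.0023), Cox7a2 (0.0024) and Ndufa4 (0.00248). In Cox6a1 the log2 fold change was 2.18 at W2 and 0.68 at W4, and in Ndufa4 it was 1.56 at W2 and 0.02 at W4. The 5 mt-encoded members were mt-Co3 (adjusted p = 0.00818), mt-Atp8 (0.00877), mt-Nd6 (0.0229), mt-Cytb (0.0337) and mt-Nd4 (0.0467). Of these, mt-Co3 lies in the copied stretch and mt-Atp8 between copied neighbours. All 5 were lower in cKO at W2 and had positive log2 fold changes at P1, where none was called. These tests share the W2 Control libraries with the W2 comparison. Groups of 2 libraries are too small to look for single outlying samples.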

How the results depend on the processing

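Replicate numbers were not taken to pair the libraries. The correlation of same-numbered deviations over genes was 0.0127 at P1, 0.14 at W1, 0.0351 at W2 and 0.104 at W4. With 2 libraries in each group these values cannot show whether libraries were paired. With a replicate block within each age, 2 nuclear members were called at W1, 52 at W2 and 34 at W4, 5 mt-encoded members at W2 and 2 at W4, and 3 mt-encoded members depended on age. A block over all groups called 4 nuclear members from P1 to W1 in cKO.

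For mt-encoded members at W2, with 5 lower, the count was 3 with a pseudocount of 0.1, 3 with each age fitted alone, 2 with no filter, 9 after median-of-ratios rescaling, 10 on the nuclear-total scale and 2 against W1 and W4 Control. At W4, with 2 lower, it was 1 with a pseudocount of 0.1, 1 with each age alone and 0 with no filter, and without W4 Control replicate 2 it turned to 1 higher. Age dependence, with 5, passed in 3 with a pseudocount of 0.1, 2 with no filter and 11 on the nuclear-total scale. With no filter the age steps called 4 (W1 to W2) and 5 (W2 to W4) in Control, and 2 (W2 to W4) and 1 (P1 to W4) in cKO, the last being 2 with a sex term.

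For nuclear members at W1, with 5 called, the count was 1 on the deposited scale, 1 after median-of-ratios rescaling, 1 with no filter, 13 with W1 alone and 0 with a sex term. At W2 it was 22 against W1 and W4 Control. At W4 median-of-ratios rescaling called 43 and turned the balance, with 3 higher and 40 lower. The mean over ages called 22 after that rescaling and 19 with a sex term. From P1 to W1 in Control the count was 2 after median-of-ratios rescaling, 3 with no filter and 2 with a sex term. From W1 to W2 and from W2 to W4 in Control it was 53 and 62 on the deposited scale, and from P1 to W4 2 with a sex term. In cKO, P1 to W1 gave 1 on the deposited scale, 6 after median-of-ratios rescaling and 1 with no filter, W1 to W2 gave 3 after median-of-ratios rescaling and P1 to W4 gave 12 with a sex term. The causes were not tested.

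Leaving out each library in turn gave, for mt-encoded members, 1 to 9 calls at W2 and 0 to 4 at W4, 2 to 10 for age dependence, and in Control 2 to 12 from W1 to W2, 4 to 13 from W2 to W4 and 0 to 1 from P1 to W4. In cKO it gave 0 to 7 from W2 to W4 and 2 to 6 from P1 to W4. For nuclear members it gave 0 to 8 calls at W1, 32 to 50 at W2, 13 to 39 at W4, 32 to 44 for the mean and 37 to 56 for age dependence. In Control the ranges were 0 to 12 from P1 to W1, 6 to 21 from W1 to W2, 25 to 41 from W2 to W4 and 1 to 9 from P1 to W4, and in cKO 0 to 4, 0 to 1, 21 to 44 and 23 to 42.

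Some single members changed direction. Against W1 and W4 Control at W2 the log2 fold change was 0.26 for mt-Atp8, 0.062 for mt-Co3, 0.14 for mt-Cytb, 0.18 for mt-Nd4, -0.091 for Atp5f1, -0.19 for Ndufa4 and -0.17 for Sdha. After median-of-ratios rescaling at W4 it was -0.065 for Atp5d, -0.0028 for Ndufs6 and -0.012 for Uqcrfs1. Under every alternative run, 13 of the 50 nuclear calls at W2 remained (Atp5d, Atp5k, Cox4i1, Cox6a1, Cox8a, Ndufa1, Ndufa10, Ndufb6, Ndufs4, Sdhc, Uqcr10, Uqcr11 and Uqcrfs1), 4 of 29 at W4 (Atp5b, Cox6a2, Cox7a2l and Ndufb7) and 0 of 5 at W1, and of the mt-encoded calls mt-Nd6 at W2. Groups of 2 libraries and the few reads of mt-Atp8 and mt-Nd4l limit all of these counts.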

Other observations

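Coa7, an assembly factor of complex IV that lies outside the subunits, had nearly equal log2 fold changes between cKO and Control at W1, W2 and W4 (1.74, 1.77 and 1.69, each ± 0.17). Cox6b2 was the only nuclear member called between P1 and W4 Control whose log2 change exceeded 2 in size (-3.60 ± 0.33). Its fall was of like size in cKO (-3.59 ± 0.33), where the P1 libraries were female and the W4 libraries male.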
